A study of Mus musculus with 6 samples.

Results

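The 52 genes described here encode Wnt ligands, their receptors, the secreted and intracellular inhibitors of the pathway, the complex that destroys beta-catenin, and the nuclear effectors that act with it. They were listed by symbol for their part in the pathway and not by a rule on their peaks, though earlier results of these data were known. All 52 matched a protein-coding gene among the 21887 on the main chromosomes of mm10. Their promoters were read in 4 lists of H3K4me3 peaks from progenitor cells of the mouse cochlea that carry the receptor Lgr5. In both groups the cells came from Lgr5-EGFP-creERT2 mice (strain C57BL/6, either sex, postnatal day 0 to 3), in which the Lgr5 locus drives EGFP and CreERT2. Cochleae were cultured with IGF-1, bFGF and EGF, and dissociated cells were sorted by green fluorescence. Of the 2 groups, 1 had been treated with neomycin for 12 h and the other was untreated, with 2 H3K4me3 libraries and 1 input library each. The inputs were not analysed here. Neomycin is an aminoglycoside antibiotic that kills hair cells, and the comparison addresses how the mark lies on progenitor promoters after such damage. The reporter marks the supporting cells that express Lgr5, which are of several types, and no label states if both libraries of 1 group were made from different cultures.

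In the canonical Wnt pathway, a secreted Wnt protein binds a Frizzled receptor and an Lrp co-receptor, Dishevelled is recruited, and the complex of Axin, Apc, Gsk3 and casein kinase stops marking beta-catenin for destruction. Beta-catenin then enters the nucleus and activates targets with Tcf and Lef factors, among them inhibitors such as Axin2, Nkd1 and Notum that feed back on the pathway. In the neonatal cochlea, Lgr5 marks supporting cells that respond to Wnt signals and can divide or form hair cells. H3K4me3 is a trimethylated lysine of histone H3 that marks promoters, both active ones and those held ready, and above all CpG-rich ones.

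The 4 peak lists differed in ways that touch each result below. They held 14203 and 11545 peaks in the neomycin libraries (replicates 1 and 2) and 15938 and 10520 in the untreated libraries, and the median peak was 70 and 142 bp long with neomycin against 310.5 and 340 bp without. They carry no read totals, so depth is unknown, and a promoter without a peak is one where no peak was called. The labels give the same H3K4me3 antibody for all 4 libraries, but the deposited lists of the untreated libraries are named for H3K4me2, so that the mark in them is to that extent uncertain. Of 10 supporting cell markers, Fgfr3, Gjb2, Hes5, Jag1, Lfng, Lgr5, Prox1 and Sox9 were marked in all 4 libraries, while the 6 macrophage and blood markers and 8 genes of tissues that should be absent had no promoter peak in any. Mesenchyme markers moved with the treatment: neomycin libraries marked 0 and 0 of 10 and untreated libraries 3 and 4, and Col1a1, Col1a2, Dcn, Lum, Otor and Pou3f4 had no promoter peak in any library. Hair cell markers were marked in 1 and 0 of 10 with neomycin and in 4 and 1 without, and Myo7a, Ocm, Otof, Slc17a8, Slc26a5 and Tmc1 had none in any library. Of 7 glial markers, neomycin libraries had 4 and 3 with a peak and untreated libraries 5 and 3, with Egr2 and Sox10 in all 4 libraries. Of 10 markers of spiral ganglion neurons, neomycin libraries marked 1 and 4 and untreated libraries 6 and 4, with Nefm in all 4. Of 5 endothelial markers, neomycin libraries marked 2 and 1 and untreated libraries 1 and 0, with Flt1 in both neomycin libraries alone. In these sorted cells, fewer cells of a type and less mark per cell cannot be told apart, and the part of these differences in the results was not tested.

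Here a marked promoter is one with at least 1 bp of a peak inside a window that reaches 1 kb to either side of a RefSeq start site. Start sites and strand were used for 35 of the 52 genes. For the other 17 the window lay at whichever gene end had peaks in more libraries, a choice that favours finding a mark. Summed peak lengths count each peak that touches the window at its full length. Sequences of 5 promoters are printed because they span the range of marking. Axin2 was marked in all 4 libraries, Ctnnb1 and Wnt4 in both untreated libraries alone, Sp5 in untreated replicate 1 alone and Dkk2 in none. Each line holds the 250 bases before the start on the plus strand, from RefSeq (GRCm38.p6, the assembly of mm10), with CpG dinucleotides in capitals.
Axin2, chr11:108920099-108920348: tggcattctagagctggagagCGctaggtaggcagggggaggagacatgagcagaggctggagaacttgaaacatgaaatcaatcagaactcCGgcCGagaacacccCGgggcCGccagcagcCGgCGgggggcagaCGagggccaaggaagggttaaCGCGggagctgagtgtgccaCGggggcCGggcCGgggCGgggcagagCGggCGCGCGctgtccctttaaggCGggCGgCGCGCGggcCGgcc
Ctnnb1, chr9:120933150-120933399: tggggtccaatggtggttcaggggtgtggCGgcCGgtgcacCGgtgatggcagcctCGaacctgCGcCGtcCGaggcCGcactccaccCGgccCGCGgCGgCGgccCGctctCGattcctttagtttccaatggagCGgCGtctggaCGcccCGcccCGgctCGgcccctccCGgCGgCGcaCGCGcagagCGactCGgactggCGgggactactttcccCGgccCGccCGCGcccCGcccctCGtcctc
Wnt4, chr4:137277385-137277634: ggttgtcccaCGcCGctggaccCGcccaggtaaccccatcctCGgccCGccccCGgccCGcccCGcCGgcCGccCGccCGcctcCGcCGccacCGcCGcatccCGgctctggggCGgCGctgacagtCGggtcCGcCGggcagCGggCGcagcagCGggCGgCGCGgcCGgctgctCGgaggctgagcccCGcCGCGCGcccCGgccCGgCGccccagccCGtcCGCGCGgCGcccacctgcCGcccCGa
Sp5, chr2:70474673-70474922: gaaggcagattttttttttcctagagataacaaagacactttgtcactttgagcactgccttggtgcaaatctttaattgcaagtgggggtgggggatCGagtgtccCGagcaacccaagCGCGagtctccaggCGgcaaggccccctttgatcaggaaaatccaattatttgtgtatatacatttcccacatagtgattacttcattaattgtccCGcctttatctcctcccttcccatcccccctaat
Dkk2, chr3:132085042-132085291: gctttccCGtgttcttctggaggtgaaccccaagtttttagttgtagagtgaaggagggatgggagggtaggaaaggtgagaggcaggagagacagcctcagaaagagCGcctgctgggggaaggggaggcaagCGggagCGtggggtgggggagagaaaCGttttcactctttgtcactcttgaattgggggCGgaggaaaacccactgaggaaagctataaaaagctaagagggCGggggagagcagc
These stretches hold 24 CpGs in Axin2, 35 in Ctnnb1, 44 in Wnt4, 6 in Sp5 and 7 in Dkk2, against a median of 10 over 17492 genes with a start site.

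The promoters of the Wnt pathway carried the mark more often than promoters at large. A peak was present in 28 and 31 of the 52 genes with neomycin (53.8% and 59.6%) and in 40 and 37 without (76.9% and 71.2%). Over all 21887 genes the shares were 34.8% and 33.6% with neomycin and 47.0% and 36.3% without. Of the 52 genes, 46 (88.5%) were marked in at least 1 library, against 55.0% of all genes, and 20 (38.5%) in all 4, against 16.6%. The other 6 (11.5%) had no promoter peak in any library, against 45.0% of all genes. Read only over promoters with a peak somewhere, 20 of 46 (43.5%) were marked in all 4, against 30.2% of 12028. Among the 35 genes with a start site, 32 were marked somewhere (91.4%, against 55.6% of 17492 genes) and 12 in all 4 libraries (34.3%, against 17.1%). Both untreated libraries marked more of the 52 genes than either neomycin library, and the same order held over all genes. Untreated replicate 2 had the shortest of the 4 lists. With lists of equal length 12 of the 52 genes were marked in all 4 libraries, and 11.5% of all genes. The part of list length in the shares of each library was not tested. No test was made of these shares, since genes are not replicates and 4 libraries fall into pairs in only 3 ways, so that relabelling them allows no p below 0.333.

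**Figure D1:**
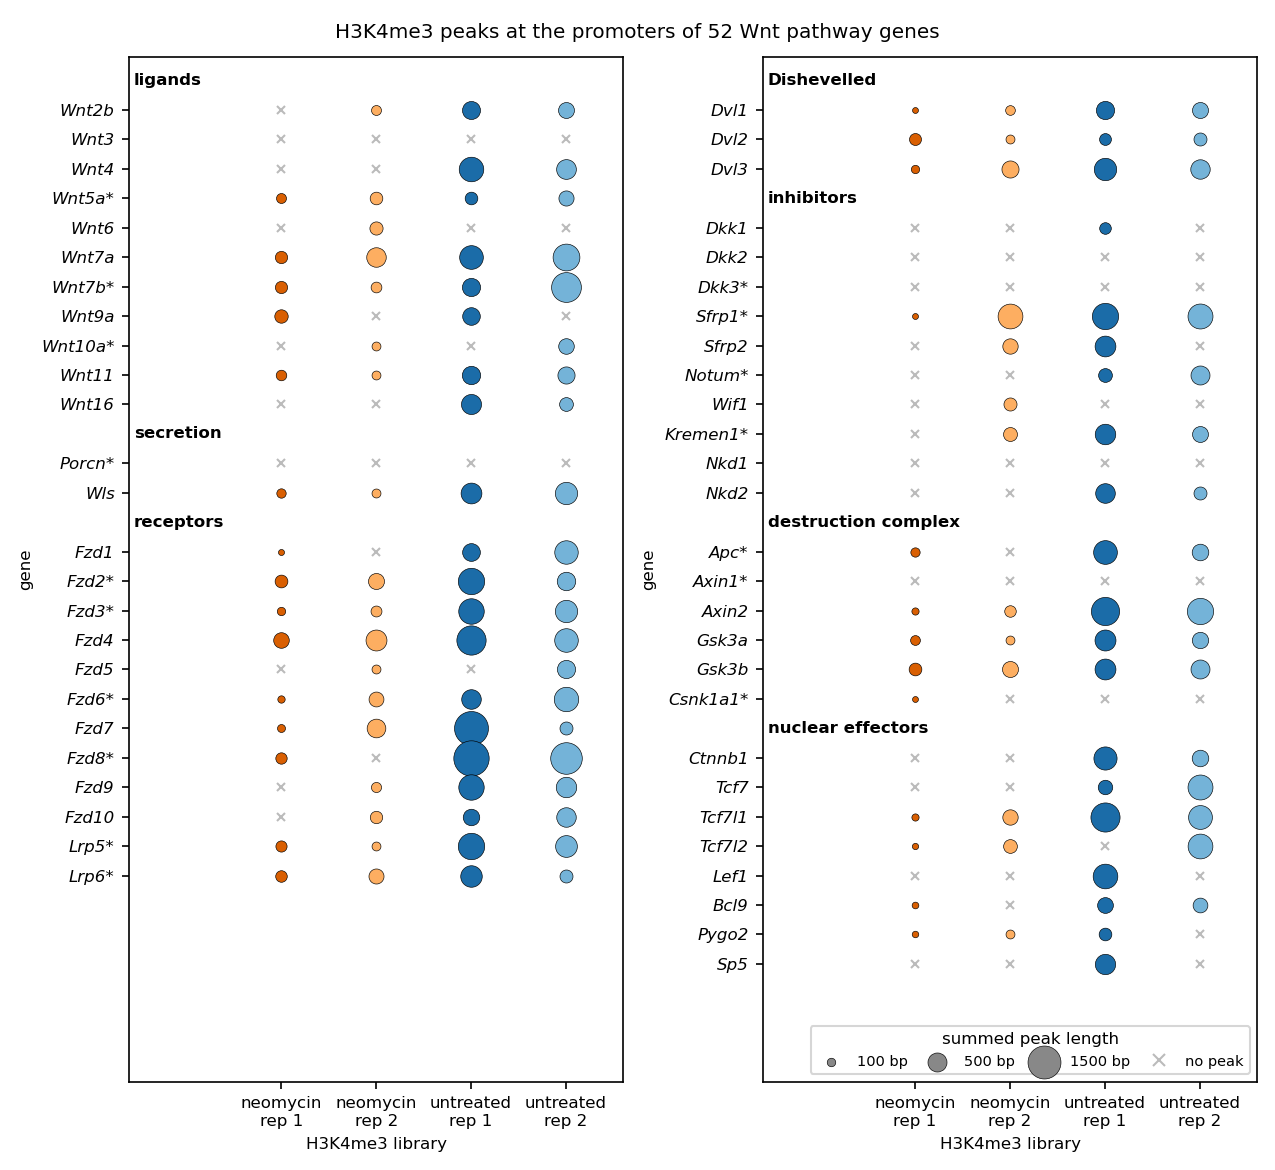
Peaks at the promoters of the 52 genes by role (rows) in the 4 libraries (columns), with the area of each circle proportional to the summed length of the peaks in bp and a cross where no peak was called; an asterisk marks the 17 genes whose window lay at a gene end. Receptors and Dishevelled genes fill nearly every column, while 6 genes have a circle in both untreated columns and in neither neomycin column.

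Receptors and Dishevelled genes were the most completely marked. The Frizzled proteins, Fzd1 to Fzd10, are the receptors for Wnt, and Lrp5 and Lrp6 are their co-receptors. Neomycin libraries marked 9 and 10 of these 12 genes and untreated libraries 11 and 12. The shares of all genes were 34.8% and 33.6% with neomycin and 47.0% and 36.3% without. In all 4 libraries 7 of the 12 had a peak (58.3%, against 16.6% of all genes), namely Fzd2, Fzd3, Fzd4, Fzd6, Fzd7, Lrp5 and Lrp6. Fzd4, on chromosome 7 from 89404366 to 89410110, had summed peak lengths of 336 and 606 bp with neomycin and 1184 and 768 bp without, in a window shared with the start of Tmem135. Lrp5 had 173 and 110 bp with neomycin and 964 and 654 bp without, and these unscaled lengths did not overlap between the groups. Lrp6 had 185 and 313 bp with neomycin and 640 and 234 bp without, which overlap. All lengths given here are unscaled, and peaks were longer in the untreated lists at large. Set against the library medians, both neomycin values lay above both untreated values at Fzd4 and Lrp6, as at 19.3% of all promoters. At Lrp5 both lay below, as at 21.0%. At Fzd2 the peaks summed to 225 and 355 bp with neomycin and 960 and 472 bp without, and at Fzd3 to 97 and 165 bp against 899 and 686 bp. At Fzd6 they summed to 75 and 306 bp with neomycin and 530 and 824 bp without. Fzd7 did not separate the groups, with 88 and 483 bp with neomycin and 1594 and 234 bp without. Fzd9 and Fzd10 had a peak in every library except neomycin replicate 1, and Fzd1 and Fzd8 in every library except neomycin replicate 2. Fzd8 had 179 and 0 bp with neomycin and 1728 and 1379 bp without, and in neomycin replicate 2 no peak was nearer than 494.6 kb. Fzd1, by contrast, had 3 peaks inside the gene in that library, the nearest 1.202 kb from the start and so just outside the window. Fzd5 was marked in replicate 2 of each group alone. The 3 Dishevelled genes Dvl1, Dvl2 and Dvl3, which pass the signal from the receptor to the destruction complex, were marked in all 4 libraries. Dvl1 had 48 and 130 bp with neomycin and 460 and 355 bp without, and Dvl3 had 96 and 404 bp with neomycin and 692 and 522 bp without. Dvl2 had 199 and 111 bp with neomycin and 194 and 234 bp without. On the log2 scale it lay above the library median in neomycin replicate 1 (0.67). It lay below the median in neomycin replicate 2 (-1.09) and in both untreated libraries (-1.555 and -1).

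Ligands were more uneven. Neomycin libraries marked 5 and 7 of 11 Wnt genes (45.45% and 63.64%, against 34.8% and 33.6% of all genes). Untreated libraries marked 8 and 8 (72.73% each, against 47.0% and 36.3%). Wnt5a, which acts mainly outside the beta-catenin branch, and Wnt7a, Wnt7b and Wnt11 had a peak in all 4 libraries. At Wnt7a the peaks summed to 209 and 526 bp with neomycin and to 774 and 992 bp without, and at Wnt5a to 138 and 221 bp against 221 and 317 bp. At Wnt7b they summed to 207 and 160 bp with neomycin and 458 and 1228 bp without, and at Wnt11 to 154 and 110 bp against 466 and 407 bp. The untreated lengths of these 4 ligands were the longer ones, as peaks were longer in the untreated lists at large, except that neomycin replicate 2 and untreated replicate 1 were equal at Wnt5a. Wnt5a also had peaks further inside the gene in all 4 libraries, with 5 and 3 peaks in the gene or within 1 kb of it with neomycin and 4 and 2 without. Wnt2b lacked a peak in neomycin replicate 1 alone. Wnt9a was marked in replicate 1 of each group. Wnt10a, whose strand was not given, was marked in replicate 2 of each group at its upper gene end, 74804176. At its lower gene end, 74792019, untreated replicate 2 alone had a peak, of 415 bp. Wnt6, on chromosome 1 from 74754342 to 74785322, was the 1 ligand marked only with neomycin, in replicate 2 alone (240 bp, 0.122 kb from the start). Wnt3 had no promoter peak in any library, though its gene held 1 and 0 peaks with neomycin and 1 and 1 without. Of the genes needed to release Wnt proteins, Wls, the carrier that takes them to the cell surface, was marked in all 4 libraries with 122 and 111 bp with neomycin and 598 and 685 bp without. Porcn, the enzyme that adds their lipid, had no peak in any.

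**Figure D2:**
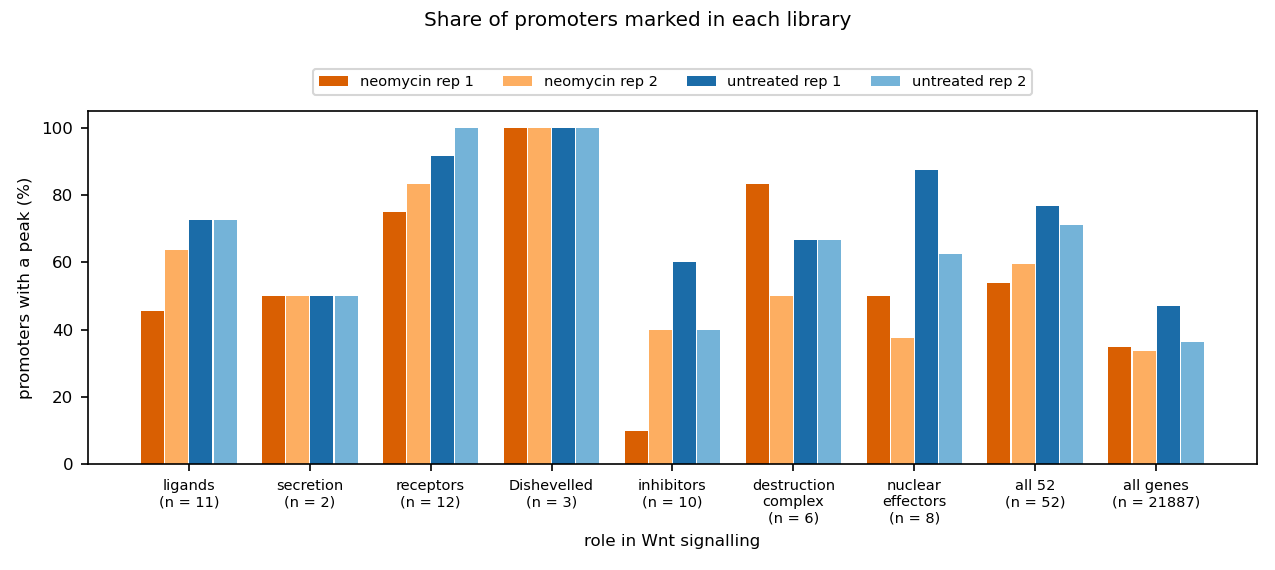
Share of promoters with a peak, in percent, for each role and library, with neomycin bars left of untreated bars and all 21887 genes at the right. Untreated bars are the taller ones for receptors (91.7% and 100%, against 75.0% and 83.3% with neomycin), while only 10.0% of the inhibitors were marked in neomycin replicate 1.

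Neomycin libraries marked 1 and 4 of the 10 inhibitors and untreated libraries 6 and 4, a smaller share than of the receptors in every library. Over all genes the shares were 34.8% and 33.6% with neomycin and 47.0% and 36.3% without. The inhibitors thus lay below the share of all genes in neomycin replicate 1 alone. Only Sfrp1, a secreted protein that binds Wnt, had a peak in all 4 libraries, and its lengths of 49 and 850 bp with neomycin and 953 and 862 bp without put neomycin replicate 1 apart from the other libraries. The related Sfrp2 was marked in neomycin replicate 2 and untreated replicate 1. Kremen1, a receptor for Dkk proteins, lacked a peak in neomycin replicate 1 alone. Of the Dickkopf genes, whose products block Lrp5 and Lrp6 in the case of Dkk1, Dkk1 had 1 peak of 187 bp in untreated replicate 1, and Dkk2 and Dkk3 had none at the promoter. The nearest peak to the Dkk2 start in any library was 520.1 kb away. Dkk3, whose strand was not given, had 2 peaks inside the gene in untreated replicate 1, between 112157789 and 112158361 on chromosome 7. They lay near its upper gene end at 112159482, just outside a window of 1 kb there. Wif1, another secreted protein that binds Wnt, was marked in neomycin replicate 2 alone, with 2 peaks that summed to 236 bp. Nkd1, which binds Dishevelled and is induced by Wnt signals, had no peak at its listed start on chromosome 8. All 4 libraries had peaks between 5 and 7 kb upstream of that start, the nearest ones 5.22 and 5.36 kb away with neomycin and 5.46 and 5.45 kb away without. That is near the start of the annotated gene at 88521342.

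The destruction complex was marked in most libraries, at positions that the window did not always reach. Gsk3a and Gsk3b, the kinases that phosphorylate beta-catenin, were marked in all 4 libraries. At Gsk3a the peaks summed to 133 and 110 bp with neomycin and to 608 and 370 bp without. At Gsk3b the peaks summed to 223 and 355 bp with neomycin and to 602 and 498 bp without. Apc, the scaffold of the complex, lacked a peak in neomycin replicate 2 alone (120 and 0 bp with neomycin, 778 and 381 bp without). Axin1 had no peak at either gene end, but 2 and 1 peaks inside the gene with neomycin and 1 and 1 without. Counted from the lower gene end, their summits lay at 7297 and 8244 bp in neomycin replicate 1, 7722 bp in neomycin replicate 2, and 7702 and 7727 bp in the untreated libraries. Csnk1a1, the kinase that primes beta-catenin, was marked in neomycin replicate 1 alone by 48 bp. Outside the window, the nearest peaks to the same gene end lay 2.65 kb away in neomycin replicate 2, and 1.09 and 1.11 kb away in the untreated libraries.

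Axin2 differs from Axin1 in that Wnt signals induce it, and it had the mark in all 4 libraries at its listed start, 108920349 on chromosome 11. The peaks that touched the window summed to 72 and 184 bp with neomycin and to 1099 and 952 bp without. Within the window itself they covered 72 and 184 bp with neomycin and 289 and 885 bp without, since a peak of 815 bp in untreated replicate 1 lay almost wholly beyond it. By either measure both neomycin values lay below both untreated values. These lengths are unscaled, and peaks were longer in the untreated lists at large. Set against the library medians, the log2 difference was -1.56 for summed length and -0.55 for covered bases. The gene and the 1 kb around it held 5 and 2 peaks with neomycin and 2 and 2 without, and the 4 further peaks of neomycin replicate 1, of 157, 133, 124 and 61 bp, lay beyond the window inside the gene. Over the gene and the 1 kb around it the peaks summed to 547 and 358 bp with neomycin and to 1099 and 1375 bp without.

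**Figure D3:**
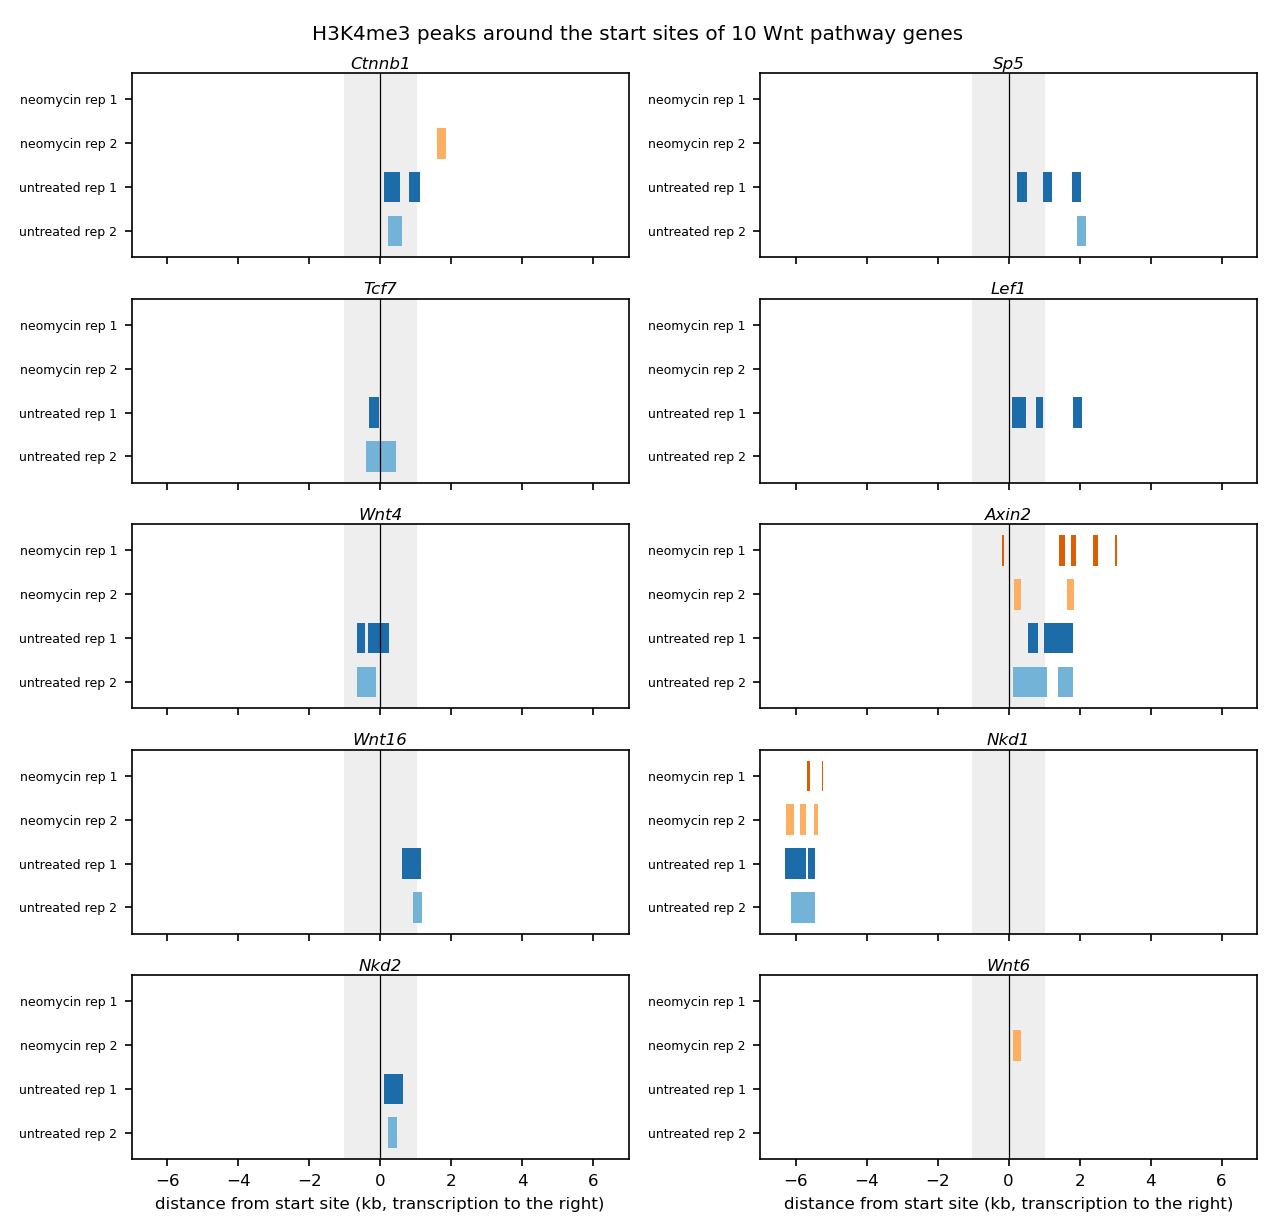
Peaks (bars) of each library around the start site of 10 of the genes, with the distance from the start in kb, the direction of transcription to the right and the window of 1 kb either side in grey. Ctnnb1, Tcf7, Wnt4, Wnt16 and Nkd2 have peaks in the window in both untreated rows and none in the neomycin rows, Axin2 has peaks in all 4 rows, and the peaks of Nkd1 lie between 5 and 7 kb upstream.

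Of the 8 nuclear effectors, 2 were marked in the untreated cells alone, the same number as of the 10 inhibitors and of the 11 ligands. Over all genes the share was 4.66%. Ctnnb1, which encodes beta-catenin, lies on chromosome 9 from 120933400 to 120960507 on the plus strand. It had no promoter peak with neomycin, against 741 and 380 bp without, all of it downstream of the first start. Its nearest peaks were 257.4 and 1.43 kb from a start with neomycin and 0 and 0.045 kb without, so that Ctnnb1 no longer belonged to the untreated cells alone with a window of 2.5 kb. Tcf7, a factor that binds DNA and recruits beta-catenin, lies on chromosome 11 from 52246527 to 52283383 on the minus strand. With neomycin it had no peak, against 290 and 861 bp without, and the nearest neomycin peaks lay 49.8 and 49.9 kb away. The other 3 factors of this family each behaved differently. Tcf7l1 was marked in all 4 libraries (72 and 326 bp with neomycin, 1173 and 785 bp without), Tcf7l2 in every library except untreated replicate 1, where the nearest peak lay 1.07 kb from a start, and Lef1 in untreated replicate 1 alone with 3 peaks that summed to 839 bp. Sp5, a transcription factor induced by Wnt, had 570 bp in untreated replicate 1 and none in the other 3 libraries. Untreated replicate 2 had a peak 1.93 kb inside Sp5, and the nearest neomycin peaks lay 88.5 and 86.7 kb away. Bcl9 and Pygo2, which join beta-catenin to the chromatin, were each marked in 3 libraries, with neomycin replicate 2 missing at Bcl9 and untreated replicate 2 at Pygo2.

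In all, 6 of the 52 genes (11.5%) were marked in both untreated libraries but no neomycin library, against 4.66% of all genes, and 0 had the reverse, against 1.41%. Among genes with a start site the counts were 5 of 35 (14.3%), against 4.53%, and 0, against 1.48%. Over promoters marked somewhere the shares were 6 of 46 (13.0%), against 8.47%, and 0, against 2.56%. Beside Ctnnb1 and Tcf7 they were the ligands Wnt4 and Wnt16 and the inhibitors Notum and Nkd2. Wnt4, which acts in the kidney and gonad and in several other organs, spans 137277635 to 137299501 of chromosome 4. Its peaks summed to 0 and 0 bp with neomycin and to 832 and 538 bp without, and the nearest neomycin peaks lay 110.5 and 110.3 kb away. Wnt16, on chromosome 6 from 22288178 to 22298522, had none with neomycin and 556 and 262 bp without. Those peaks began 0.609 and 0.930 kb inside the gene, beyond the reach of a window of 500 bp, and covered 392 and 71 bp of the window of 1 kb. The peak of untreated replicate 2 was among the weakest of its list, with a -log10 q of 3.40 (percentile 0.53). Notum, an enzyme that removes the lipid from Wnt proteins, had none with neomycin and 263 and 499 bp without, at a gene end on chromosome 11. The nearest neomycin peaks lay 12.2 and 11.6 kb away. Nkd2, a relative of Nkd1, had none with neomycin and 532 and 234 bp without, with the nearest neomycin peaks 83.1 and 83.5 kb away. The count rests on each neomycin library, because it was 10 without either neomycin replicate 1 or neomycin replicate 2, where 11.1% and 10.3% of all genes had the pattern. It was 18 under a rule that asked for 200 covered bp, which 17.9% of all genes met in the same way. With a -log10 q of at least 10 the count was 8, against 6.66% of all genes, and held none of the 6. The mesenchyme markers Coch, Prrx2 and Twist1 and the hair cell gene Atoh1 had the same pattern, and their part in the result was not tested.

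The 6 genes differed in promoter CpG content. Of the 5 with a start site, Wnt4, Tcf7 and Ctnnb1 had 44, 37 and 35 CpGs in the 250 bases before the first start, Nkd2 had 14 and Wnt16 had 9, against a median of 18 over the 792 genes of the same pattern in the genome. Across all 35 Wnt pathway promoters with a start site the median was 22 CpGs (lowest 6, highest 48), against 10 over all 17492. Genes marked in no library had 6, 7 and 22 CpGs, namely Nkd1, Dkk2 and Wnt3, and those marked in all 4 had a median of 22.5. Over all genes the median was 2 CpGs for genes marked in no library and 19 for those marked in all 4.

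**Figure D4:**
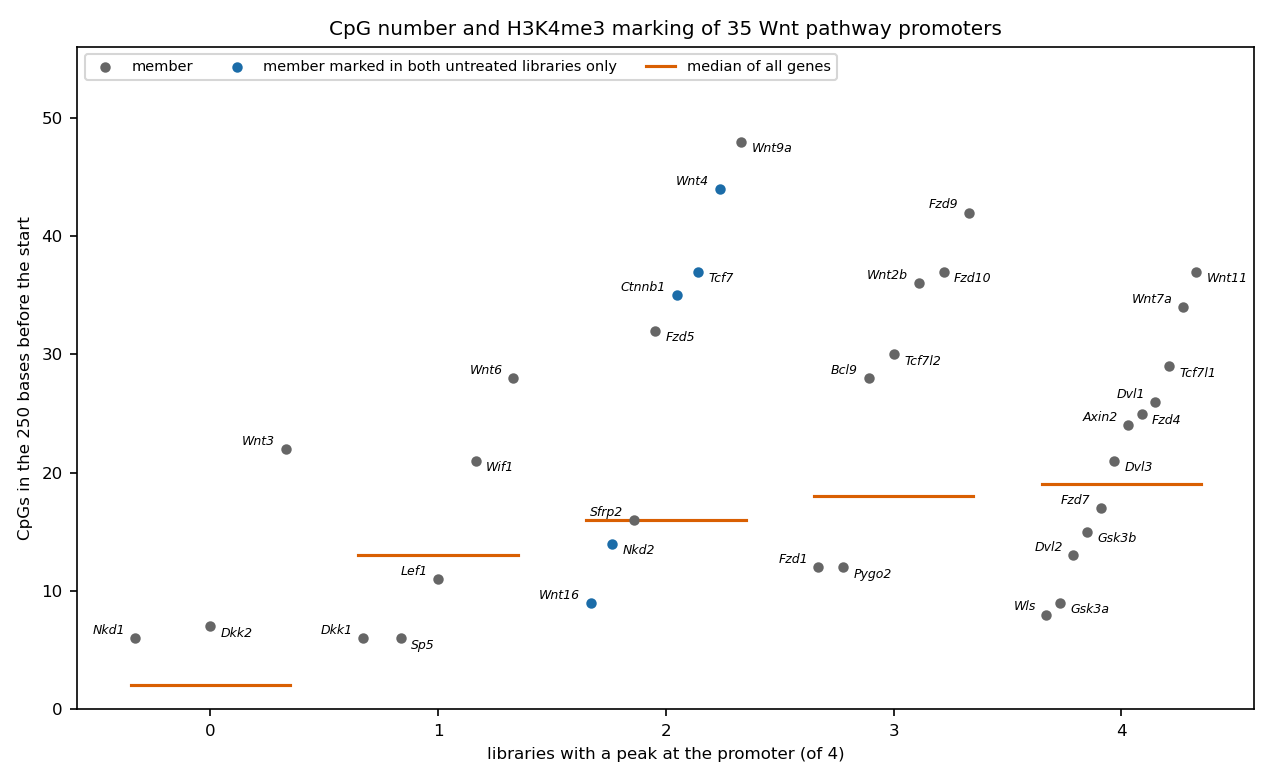
CpGs in the 250 bases before the first listed start (y axis) against the number of libraries with a promoter peak (x axis, spread sideways for legibility) for the 35 genes with a start site; blue points are genes marked in both untreated libraries alone and orange lines the medians of all genes with that number of libraries. Wnt4, Tcf7 and Ctnnb1 lie at 35 to 44 CpGs, and Wls and Gsk3a have 8 and 9 CpGs and a peak in all 4 libraries.

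Words bound by Tcf and Lef factors were not common in these stretches. The search on both strands was for the word CTTTGAA, the word CTTTGAT, the word CTTTGTA and the word CTTTGTT, which can overlap each other only end to end on opposite strands. At least 1 was present in 5 of 35 genes (14.3%), against 13.3% of all promoters of the same length. They were Sp5 (CTTTGTT on the minus strand from position -222 and CTTTGAT on the plus strand from -104, counted from the start), Dkk1 (CTTTGAA from -117 and CTTTGTT from -98), Fzd7, Gsk3a and Wnt11. A match is only a run of letters, and none of these genes belonged to the 6 marked in the untreated cells alone.

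The strongest peak mostly lay just downstream of the start in both groups. At the 35 genes with a start site, the summit of the peak with the best q-value was taken. It lay downstream of the start in 14 of 17 and 14 of 21 marked promoters with neomycin (82.35% and 66.67%). Without neomycin it did so in 21 of 28 and 17 of 24 (75% and 70.83%). Over all genes with a start site the shares were 75.41% and 74.85% with neomycin and 80.81% and 81.27% without. At the Wnt pathway genes the median distance was 354 and 158 bp downstream with neomycin and 170.5 and 232.5 bp without. Over all genes the medians were 207 and 160 bp with neomycin and 194 and 215 bp without. The spread between the 2 neomycin libraries was thus larger than the gap between the groups.

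The length of the marked stretch did not differ detectably at any of the 20 genes marked in all 4 libraries. Summed lengths were set against the median of each library over the 3638 promoters marked in all 4, which was 125 and 236 bp with neomycin and 570 and 468 bp without, and tested with limma on the log2 scale. Of 3638 promoters, 0 passed a Benjamini-Hochberg adjusted p of 0.05 (0.00%), while 353 (9.70%) had an unadjusted p under 0.05. Axin2 was the 1 gene of the 20 in that set. Its centred log2 length was -0.80 and -0.36 with neomycin and 0.95 and 1.02 without, a difference of -1.56 (SE 0.605, limma p 0.0146, adjusted p 0.363). The difference was -0.55 (limma adjusted p 0.838) when only bases within the window were counted, 0.0081 with the window of 2.5 kb, and -3.15 (limma adjusted p 0.0096) without centring, where the median over all promoters was -1.59. With neomycin replicate 2 left out it was -1.76, and with neomycin replicate 1 left out -1.31. Sfrp1 was likewise shorter with neomycin when neomycin replicate 2 was left out (-2.145), while Dvl2 was longer (1.97). With neomycin replicate 1 left out the differences were 1.07 for Sfrp1 and 0.22 for Dvl2. The lone neomycin library is there assumed to vary like the untreated ones. In 6 of the 20 genes (30.0%) both neomycin values lay below both untreated values, against 21.0% of all promoters, namely Axin2, Dvl1, Fzd3, Lrp5, Tcf7l1 and Wls. In 4 (20.0%) both lay above, against 19.3%, namely Fzd4, Gsk3b, Lrp6 and Wnt5a. The 20 genes had a median difference of -0.27, against -0.01 over all 3638. In each library the shortest possible length was that of its shortest peak, and 338 and 352 promoters lay at that limit with neomycin and 60 and 234 without.

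**Figure D5:**
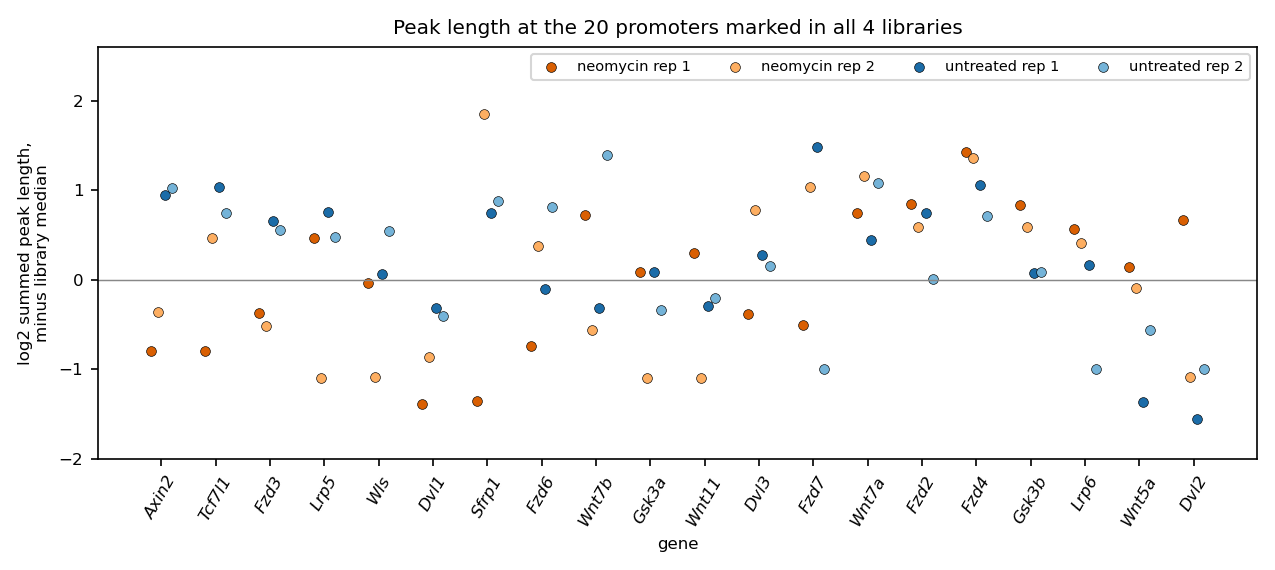
Summed peak length on the log2 scale after subtraction of the library median (y axis) for the 20 genes marked in all 4 libraries, ordered by the difference between neomycin and untreated libraries, with 1 point per library. Axin2 at the left has both neomycin points below 0 and both untreated points near 1, and replicates lie more than 1 log2 unit apart in 11 of the 20 genes with neomycin and in 3 without.

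The 67 other genes of the pathway that were listed gave a like count. They include further ligands, the R-spondins and their receptors, the planar polarity branch and further parts of the destruction complex and the nucleus. A promoter peak was present in 31 and 30 of them with neomycin (46.3% and 44.8%) and in 48 and 36 without (71.6% and 53.7%). The shares of all genes were 34.8% and 33.6% with neomycin and 47.0% and 36.3% without. Of the 67, 22 (32.8%, against 16.6% of all genes) had a peak in all 4 libraries, among them Lgr4, Lgr5, Znrf3, Tle1 and Tle4. In the untreated cells alone 6 were marked (8.96%, against 4.66% of all genes), and with neomycin alone 0, against 1.41%. Over promoters marked somewhere the share in the untreated cells alone was 6 of 50 (12%), against 8.47%. The 6 were Apcdd1, a membrane inhibitor of Wnt, Csnk1e, a kinase that acts on Dishevelled, Ctnnbip1, which blocks the binding of beta-catenin to Tcf factors, the polarity genes Celsr1 and Prickle2, and Tmem198. Celsr1 had no peak with neomycin, against 1036 and 832 bp without, and Prickle2 had none, against 433 and 502 bp. A promoter peak at Ccnd1, a cell cycle gene that responds to Wnt, was found in replicate 1 of each group, and Myc was marked in all 4 libraries with 110 and 110 bp with neomycin and 720 and 455 bp without.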

How the data were processed

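H3K4me3 was measured by ChIP-seq in 4 libraries (2 neomycin, 2 untreated), grouped and numbered by the labels. Each deposited list held the peaks of 1 library. The submitters' processing notes name mm10 as build and CASAVA 1.4, Bowtie2, MACS2 and deepTools as tools, without their roles or settings. The columns, per the file headers, are the position, length and summit of a peak and its pileup signal, and the deposited fold enrichment (a ratio over local background), -log10 p-value and -log10 q-value are the authors' own. They were used only within a list, except in the alternative that kept peaks with a -log10 q of at least 10 in every list. The median -log10 q was 4.25 and 5.77 with neomycin and 9.08 and 7.35 without. That cut therefore removed a larger part of the neomycin lists.

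Start sites and strand came from a RefSeq table of GRCm38.p6, which covered 17492 of 21887 protein-coding genes and 35 of the 52. Any listed start counted. The plan named the 5' end of the gene by strand or promoter coordinates, and the listed starts were taken; the 5' end was tried as an alternative. For genes outside that table the window lay at the end with peaks in more libraries, then with more peak bases, then the lower coordinate, which favours finding a peak. Summed peak lengths of promoters marked in all 4 libraries were centred by subtracting each library's median and went into limma 3.58.1 (R 4.3.3), fitted over all such promoters without a replicate block. The fit and the assignment of peaks were tested on simulated data. Python 3.11.15 with pandas 2.3.3, numpy 2.4.6 and matplotlib 3.10.9 did the rest. Alternatives were windows of 500 bp and 2.5 kb, other promoter positions, stricter peaks, lists of equal length and each library left out. Every gene is named in its role, and values in every library are given for genes marked in both libraries of 1 group alone, in all 4 libraries, or only elsewhere in the gene; other genes with values were chosen after these were seen. The genes and lists were chosen with earlier results of these data known. P-values measure the spread between these libraries, which may be technical.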

Additional observations from a re-analysis of the deposited data

How the results depend on the processing

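The count of 6 genes marked in both untreated libraries alone was 6 to 9 with windows of 500 bp or 2.5 kb, other promoter positions, peaks in the gene counted, a -log10 q of at least 10 or lists of equal length, although other genes made up part of it, and all 8 with a -log10 q of at least 10. Over all genes the share with this pattern ran from 4.50% to 6.66% in these settings. It was 18 (17.9% of all genes) under a rule that asked for 200 covered bp, and 6 to 10 (5.74% to 11.1%) with a library left out. Of its genes, Tcf7, Wnt4 and Nkd2 lost the pattern only with a -log10 q of at least 10. The count of 0 genes marked in both neomycin libraries alone became 1 with the window of 500 bp (Gsk3b; 1.30% of all genes) or with peaks in the gene counted (Wnt6; 1.56%), and 1 to 2 (2.16% to 5.92%) with a library left out. The 20 genes marked in all 4 libraries became 12 with the window of 500 bp (12.5% of all genes), 12 with lists of equal length (11.5%), 12 of the 35 with a start site (17.1%), 3 with 200 bp covered (2.36%), 0 with a -log10 q of at least 10 (0 of all genes), and 21 to 24 with a library left out (17.4% to 23.1%). With the listed starts replaced by the 5' gene end, an alternative chosen after seeing the data as was the restriction to 35 genes, Axin2 and Wnt11 left that set and Nkd1 joined it.

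In the limma fit of peak length, calls over all promoters were 0, and became 1139 without centring, 9 with 100 bp added and 0 to 423 with a library left out. Among the 20 genes, 9 were called without centring, all shorter with neomycin. With neomycin replicate 2 left out, Axin2 and Sfrp1 were shorter with neomycin (-1.76 and -2.145) and Dvl2 was longer (1.97). For Axin2 the sign turned with the window of 2.5 kb (0.0081), and it was -0.55 with bases within the window only, an alternative chosen after seeing the data; the cause was not tested. Replicate numbers did not pair the libraries (correlation of replicate differences -0.02), and a replicate block gave 0 calls. Unknown depth limits all statements on missing peaks.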
